A study of Mus musculus with 6 samples.

Results

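Keratocytes are the resident mesenchymal cells of the corneal stroma. They lay down the collagen and proteoglycan matrix that keeps the cornea transparent. A subset of them, called here Tnnc1/Cldn10 cells, was taken from 6 droplet single-cell libraries of mouse cornea by a count rule. A barcode was a cell with at least 500 unique molecular identifiers (UMIs, each 1 captured transcript), at least 250 genes and at most 20% mitochondrial UMIs. It was a gated keratocyte with at least 5 UMIs of Dcn, Lum, Kera and Col1a2 together, at least 5 times its UMIs of the epithelial genes Krt5, Krt12 and Perp, and at most 1 UMI of the immune genes Tyrobp, Fcer1g and Cd74. It was a Tnnc1/Cldn10 cell when at least 2 of the 5 genes Tnnc1, Cldn10, Dpp4, Cnmd and Npnt were detected and Tnmd, Crabp1, Klra4, Klra8 and Saa3 were all at 0. The rule gave 2211 cells, which is 5.50% of 40209 gated keratocytes among 63021 cells. The gated keratocytes with none of the 5 excluded genes and fewer than 2 of the 5 markers, 16115 cells, are called other keratocytes.

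All libraries came from naive female mice, of 129S2–C57BL/6-mixed strain background, that were either wild type (WT) or homozygous for a gene-trap allele of the miR-183 cluster (miR-183C GT/GT, KO), which encodes the microRNAs miR-183, miR-96 and miR-182. The corneas were cut anterior to the limbus, collagenase A with DNase I dissociated them, and dead cells were removed. Whole cornea was taken from both genotypes at 2 months and at 6 months, and at 6 months cornea-resident immune cells were also enriched on magnetic beads for CD45 (CRIC). Each of the 6 groups was 1 library, and the labels used here state neither how many animals a library pooled nor which cells lost the cluster. The WT and KO libraries held 757 and 828 Tnnc1/Cldn10 cells at 2 months and 477 and 85 at 6 months. The WT CRIC library held 14 and the KO CRIC library 50, although a CD45 enrichment is meant to leave keratocytes out.

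Of the marker genes, Tnnc1 encodes the troponin C of slow and cardiac muscle, a calcium sensor. Cldn10 encodes a claudin that forms ion-selective pores in tight junctions. Dpp4 encodes a surface peptidase (CD26), Cnmd encodes chondromodulin, an inhibitor of vessel growth known from cartilage, and Npnt encodes nephronectin, a basement membrane ligand of integrins. MicroRNAs of the miR-183 cluster bind messenger RNAs mainly through their seed, bases 2 to 8, and are best known from sensory cells. On build GRCm38.p6 (mm10), Tnnc1 lies on chromosome 14 at 31208312 to 31211729, Cldn10 at 118787871 to 118874525 and Cnmd at 79637682 to 79662194 of the same chromosome. Dpp4 lies on chromosome 2 at 62330073 to 62412315 and Npnt on chromosome 3 at 132881745 to 132950291.

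The mature microRNAs that the KO allele removes are shown because the genotype comparison turns on them, in the RefSeq sequence of build GRCm38.p6, with the seed in capitals. All 3 lie on the minus strand of chromosome 6, at 30169711 to 30169732, 30169506 to 30169528 and 30165962 to 30165986. Each of the 3 has a seed of its own.
miR-183-5p: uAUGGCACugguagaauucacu
miR-96-5p: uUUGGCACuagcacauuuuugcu
miR-182-5p: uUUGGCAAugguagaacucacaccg
No hairpin of the cluster is among the 31053 features of the matrices, so the loss of the microRNAs could not be checked in any library.

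Depth differed between the libraries. The whole-cornea libraries held 33127813 (KO, 6 months) to 117613142 (WT, 6 months) UMIs. Summed over the Tnnc1/Cldn10 cells the WT and KO totals were 3460024 and 4453074 UMIs at 2 months, 3453155 and 207922 at 6 months, and 39189 and 240155 in CRIC, so that 1 UMI was worth 0.289, 0.225, 0.290, 4.81, 25.5 and 4.16 CPM (a gene's UMIs scaled to 1000000 UMIs in the library's cells). The cells were deeper than other keratocytes in every library, with medians of 4440, 5231, 6642 and 2394 UMIs in the cornea libraries (in the order WT and KO at 2 months, WT and KO at 6 months, kept from here on) against 1777.5, 2962, 3617 and 1255. Their median mitochondrial share was lower, at 0.659%, 0.742%, 1.10% and 1.88% against 3.79%, 2.61%, 2.73% and 4.17%. A cell with more UMIs has more chances to show 2 markers. Other keratocytes were therefore weighted to the depth of the Tnnc1/Cldn10 cells where the subset is described against them. In the genotype, age and interaction comparisons their UMIs were summed without that weighting, so the levels given there are not matched for depth. None of the 2211 barcodes was shared between libraries, while pairs of libraries shared 2 to 34 barcodes among all cells.

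Libraries and cells that stand apart bear on the results. In the 2-month library with the KO label the Tnnc1/Cldn10 cells held 218 UMIs of Y-linked genes, against 0 in each of the other 5 libraries, although all mice were labelled female. Of its 828 cells, 144 had Y-linked UMIs only, 487 had Xist only, 5 had both and 192 had neither. The subset made up 14.6% of the gated keratocytes with Y-linked UMIs only and 9.42% of those with Xist only in that library, which were not matched for depth. In addition, 21 of the 2211 cells (8, 2, 10 and 1 in the cornea libraries and 0 in CRIC) drew over 1% of their UMIs from 9 genes of superficial corneal epithelium (Psca, Asprv1, Lypd2, Prss27, Upk1b, Csta1, Ly6g6c, Calml3 and Lce3a), a list and limit set after the values were seen. These epithelial-rich cells held 20140 of the 21922 Psca UMIs of the subset and had median depths of 11277, 30023.5, 26311.5 and 4137 UMIs. The median of the remaining cells was 4437, 5227, 6602 and 2383 UMIs. Among other keratocytes 101 of 16115 passed the same limit. Results are therefore given with and without the epithelial-rich cells and the cells with Y-linked UMIs. No doublet caller was run.

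**Figure D1:**
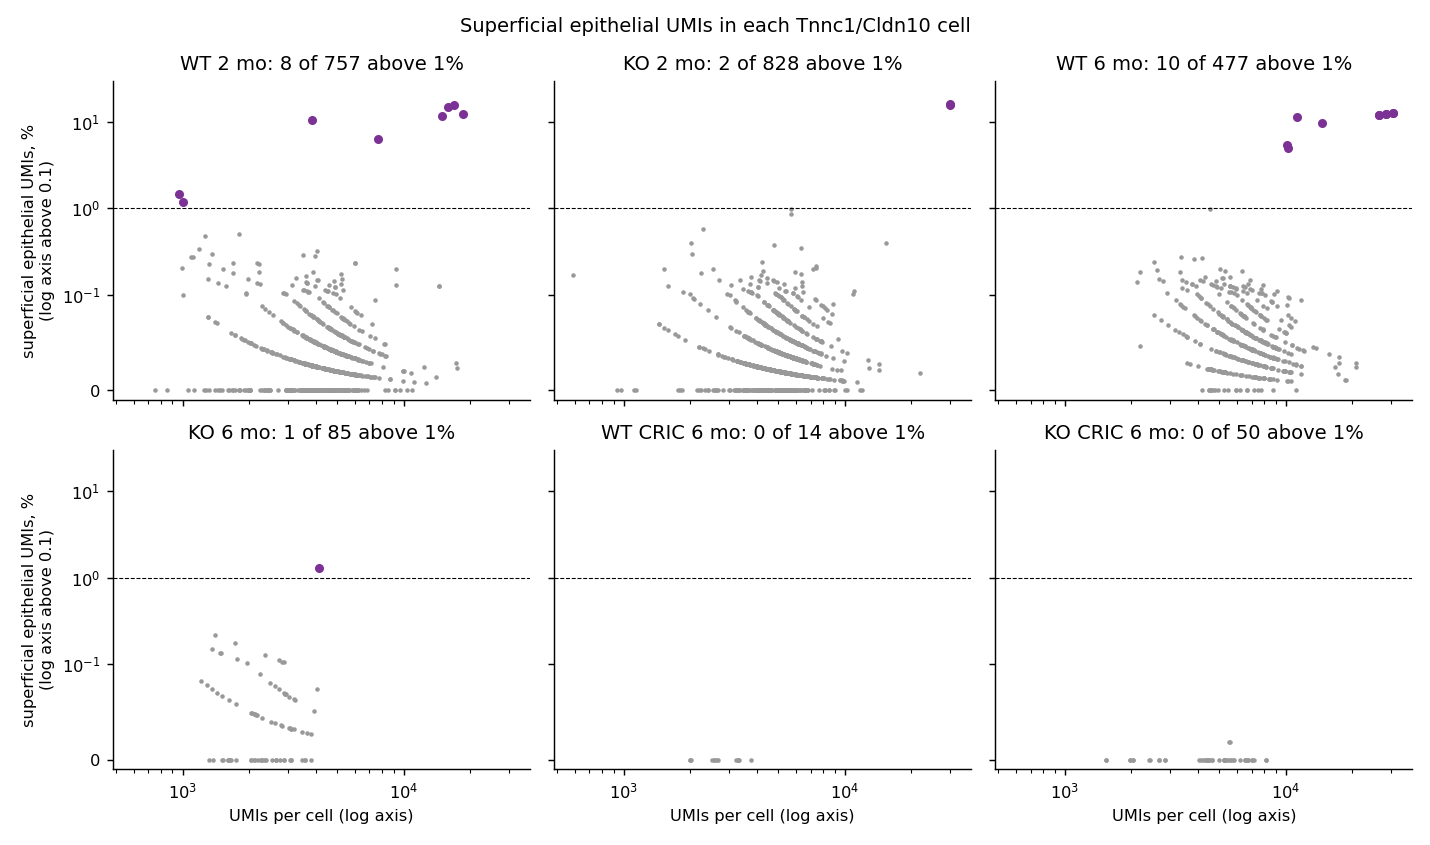
Each point is 1 Tnnc1/Cldn10 cell, with its UMIs on the x axis (log axis) and the percentage of its UMIs from 9 superficial epithelial genes on the y axis (log axis above 0.1), 1 panel per library. The 21 purple cells lie above the dashed line at 1%, up to 16.2%, and 10 of them are in the WT library at 6 months.

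The marker genes chose the cells, so their levels are a description without a test. Cldn10 stood at 282, 252, 215 and 620 CPM in the cornea libraries, at 306 in WT CRIC and at 267 in KO CRIC. It was the marker seen in the most cells, with 75.7%, 71.7%, 76.9% and 72.9% of the cells of the cornea libraries holding at least 1 UMI. Tnnc1 stood at 209, 186, 127 and 139 CPM and at 128 and 137 in CRIC, and was detected in 51.3%, 45.5%, 43.0% and 31.8% of the cells. The label names both genes, yet in every cornea library a cell lacked Tnnc1 more often than it lacked Cldn10. Dpp4 stood at 90.2, 144, 88.3 and 173 CPM and at 332 and 129 in CRIC. Cnmd stood at 203, 174, 92.7 and 168 CPM and at 102 and 54.1 in CRIC. Npnt stood at 131, 176, 120 and 322 CPM and at 281 and 204 in CRIC. Its KO level at 6 months, from 85 cells, lay above every other library.

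In other keratocytes of the same depth Tnnc1 stood at 16.8, 16.2, 15.3 and 7.21 CPM in the cornea libraries. Free RNA, read from barcodes of at most 100 UMIs, held Tnnc1 at 23.0, 24.0, 16.8 and 4.77 CPM, which is the same order of size. Cldn10 was also found outside the subset, at 78.3, 63.6, 47.3 and 44.5 CPM in other keratocytes. The 16115 cells therefore include keratocytes with 1 marker, and 3285 gated cells without an excluded gene had exactly 1 of the 5. Among the chosen cells 1369 (61.9%) had 2 markers, 578 (26.1%) had 3, 213 (9.63%) had 4 and 51 (2.31%) had all 5, and 662 entered with only 2 marker UMIs. The other limits of the rule cut off few cells, since 2 cells had 5 to 9 stromal UMIs, 23 had a stromal count 5 to 10 times the epithelial one and 1 had 500 to 599 UMIs.

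A marker that the choice did not use was also higher. The marker rule itself was set with earlier results of these data known, so a higher level of a left-out marker could be built in. The ratios are therefore a description without a test, and no independent support for the subset. When cells were chosen by at least 2 of the other 4 markers, Tnnc1 was 3.20, 3.05, 1.93 and 4.18 times as high in them as in depth-weighted remaining keratocytes of the cornea libraries. Npnt was 2.79, 3.61, 2.76 and 6.00 times as high. Cldn10 was 2.01, 2.13, 2.14 and 5.69 times, Dpp4 2.20, 2.22, 1.78 and 2.40 times, and Cnmd 2.16, 2.00, 2.28 and 2.32 times as high. All 20 ratios were above 1. They were smaller than those of the full rule, whose medians over the 4 libraries were 12 for Tnnc1 and Npnt, 7.66 for Dpp4, 7.09 for Cnmd and 4.25 for Cldn10, against 3.13, 3.20, 2.21, 2.22 and 2.13 when the marker was left out of the choice. In KO CRIC the left-out ratio was 1.04 for Cnmd and 1.72 to 4.27 for the other markers.

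The markers also met in the same cells, which is a description without a test for the same reason. With each of 22928 gated cornea cells thinned to 1000 UMIs, Tnnc1 and Npnt were both seen in 62 cells, where the product of their separate shares in each library adds up to 15.6, a ratio of 3.97. For Cldn10 and Npnt the count was 115 against 36.2 (3.18) and for Tnnc1 and Cldn10 105 against 40.7 (2.58). The lowest of the 10 ratios belonged to Cldn10 and Cnmd, with 92 cells against 56.9 (1.62). At full depth the commonest pair among cells with exactly 2 markers was Cldn10 with Cnmd (265 cells), followed by Cldn10 with Npnt (240) and Tnnc1 with Cldn10 (225).

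**Figure D2:**
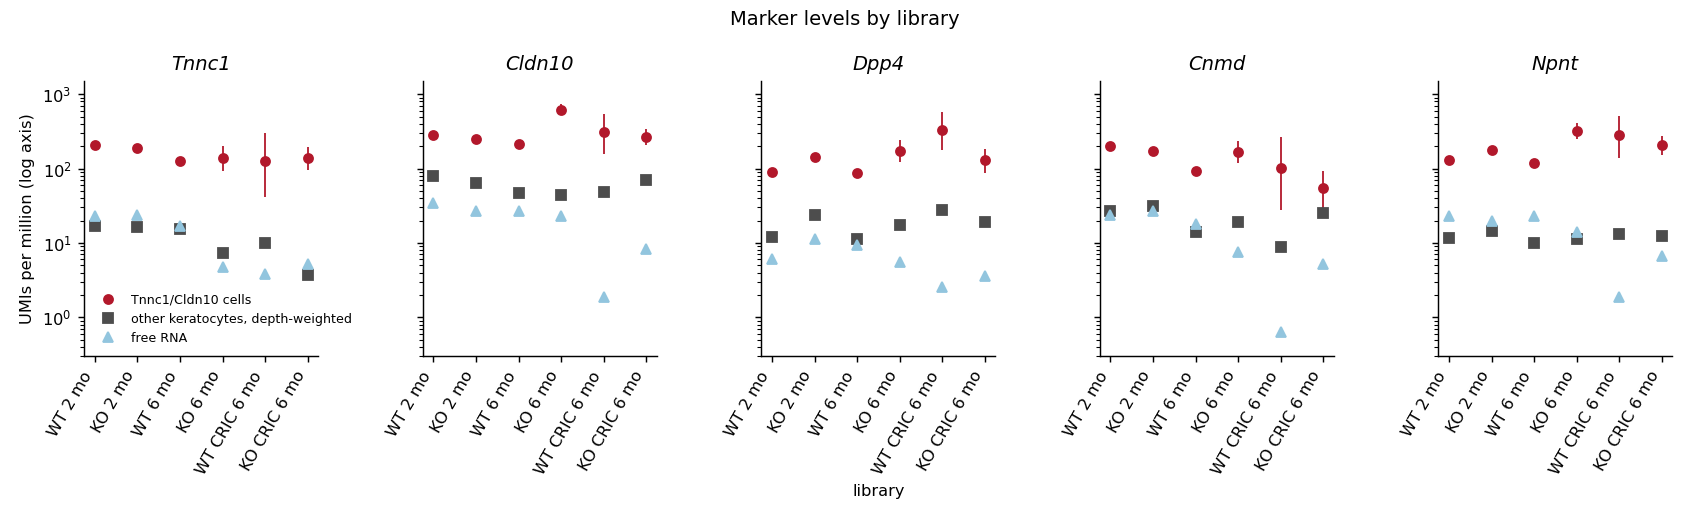
Levels of the 5 marker genes in CPM (log axis) by library, in Tnnc1/Cldn10 cells, in other keratocytes of matched depth and in free RNA. The bars are exact 95% Poisson intervals, which cover counting error only. Cldn10 lies between 215 and 620 in the subset of all 6 libraries.

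The cells carried the general keratocyte program. Dcn (decorin, a collagen-binding proteoglycan) stood at 41804, 46305, 41925 and 39024 CPM, and Lum (lumican) at 8625, 8337, 9702 and 10619. Of genes that the gate did not use, Angptl7, a secreted factor abundant in corneal stroma, stood at 8238, 8965, 8659 and 6868 CPM and Aldh3a1, the enzyme that makes up much of the soluble protein of the mouse cornea, at 5264, 5268, 4477 and 4093. Markers of other cell types were low. Over the cornea libraries the 5 listed melanocyte markers summed to 1.45 to 4.81 CPM, with Dct, Tyrp1, Mlana and Tyr at 0, and the 5 pericyte and smooth muscle markers to 0 to 6.74 CPM, with Rgs5 and Kcnj8 at 0. The 5 striated muscle markers summed to 1.45 to 4.81 CPM, with Ckm, Myh1 and Myl1 at 0, in cells with Tnnc1 at 127 to 209 CPM. Of the vascular endothelial markers Kdr stood at 97.1 to 159 CPM and was lower than in other keratocytes, while Emcn was at 0 and Pecam1 at most 1.45 CPM. Lyz2 of myeloid cells was at most 10.1 CPM. Of the corneal endothelium list, Alcam, Slc4a4, Gpc4 and Col8a2 were expressed in the subset and in other keratocytes alike, while Slc4a11, which defines that layer, stood at 2.89, 9.66, 15.1 and 0 CPM.

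Several other genes set the cells apart from other keratocytes. Because the cells were chosen from these counts, the differences are given per library as log2 differences of CPM + 1 with no test, in the 5 libraries with at least 30 chosen cells (the 4 cornea libraries, then KO CRIC). Of 11783 genes with at least 20 UMIs in each 2-month library, the rule's own genes left out, 9 were at least doubled in all 5 libraries (0.0764%) and 12 were lower by a factor of 2 or more (0.102%). Of all 11783 genes, 5.26% were higher and 7.98% lower in all 5 libraries by any amount. Nothing is read from these shares, since the choice of cells fixed the contrast. The doubled genes were Fst, Col4a4, Col4a6, Tinagl1, Bex4, Necab1, Shisa9, Frem3 and Arhgef3. The lower ones were Crabp2, Efemp1, Cntn1, Sema5a, Ptn, Kcnj2, Pcsk2, Slc26a7, Adcyap1r1, Basp1, Sqle and Gm20234. Genes named outside the 15 highest and 10 lowest of the 2-month libraries were singled out after their values were seen.

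Among the doubled genes were chains of type IV collagen, the network-forming collagen of basement membranes. It has 6 chains, which sit head to head in pairs in the genome. Col4a3 stood at 52.0, 48.3, 32.1 and 52.9 CPM in the cornea libraries and at 16.7 in KO CRIC, with log2 differences of 1.60, 1.61, 1.84, 1.96 and 0.03. Col4a4 stood at 45.4, 49.9, 44.0, 81.8 and 66.6 CPM, against 16.6, 15.8, 9.71, 11.2 and 13.1 in other keratocytes, and differed by 1.39, 1.60, 2.07, 2.77 and 2.27. Col4a5 differed by 0.86, 0.77, 1.12, 1.77 and 1.08. Col4a6 differed by 1.17, 1.15, 2.03, 1.01 and 3.16. All 4 of these chains were higher in all 5 libraries, although Col4a3 in KO CRIC rested on 4 UMIs and Col4a6 in the KO library at 6 months on 4. The common chains Col4a1 (0.16, 0.44, 0.20, -0.76 and 0.08) and Col4a2 (0.38, 0.00, 0.48, 0.21 and 0.39) differed by less than 0.5 upward in every library. Type I collagen did not separate the cells, with Col1a1 at 0.07, 0.10, 0.20, 0.12 and 0.01.

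Col4a3 (chromosome 1, 82586921 to 82722059, plus strand) and Col4a4 (82448419 to 82587034, minus strand) start so close together that their gene records overlap by 114 bases. Col4a5 and Col4a6 lie 1274 bases apart on chromosome X. The 300 bases around the shared start of Col4a3 and Col4a4 are printed because both genes were higher in the same cells. They are the minus strand of chr1:82586800-82587099 of GRCm38.p6, with the overlap of the records in capitals.
Col4a3 and Col4a4 start: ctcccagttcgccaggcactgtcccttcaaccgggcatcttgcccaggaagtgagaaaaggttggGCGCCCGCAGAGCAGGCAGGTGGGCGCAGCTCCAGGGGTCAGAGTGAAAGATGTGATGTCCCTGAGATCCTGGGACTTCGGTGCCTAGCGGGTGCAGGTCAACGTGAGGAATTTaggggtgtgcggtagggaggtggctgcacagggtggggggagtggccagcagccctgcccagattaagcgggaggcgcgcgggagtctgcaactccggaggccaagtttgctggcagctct
The window spans the start of both genes, and no measurement here says which of its bases were used.

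Other matrix genes were higher too. Tinagl1, a secreted matrix protein related to tubulointerstitial nephritis antigen of basement membranes, stood at 39.9, 58.2, 33.0 and 19.2 CPM in the cornea libraries against 13.2, 21.8, 12.8 and 0.995. Free RNA held Tinagl1 at 22.7, 29.7, 32.5 and 25.2 CPM and epithelial cells at 48.1, 42.2, 62.4 and 58.0. At 6 months the cells thus stood near or below free RNA, in KO on 4 UMIs, and the part of free RNA was not tested. Frem3, of a family of basement membrane adhesion proteins, differed by 1.33, 1.04, 1.17, 1.87 and 3.64 and Egfl6, a secreted matrix ligand, by 1.3, 0.92, 1.43, 0.94 and 0.79. Pcolce2, an enhancer of procollagen processing, differed by 0.92, 1.49, 1.24, 1.98 and 1.55. Of the laminins, Lama1 stood at 15, 18, 19.7 and 24.1 CPM against 8.71, 12.8, 11 and 10.7, whereas Lama2 was lower, by -0.25, -0.43, -0.52 and -0.58 in the cornea libraries. Of 12 tested genes of the basement membrane list (19 fixed), 2 were higher in all 5 libraries and 2 were lower, beside 5.26% and 7.98% of all genes.

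Fst, which encodes follistatin, an extracellular inhibitor of activin, had the largest mean difference of the 2-month libraries, at 2.75 and 2.78. It differed by 1.66, 2.33 and 3.05 in the other 3, where Tinagl1 in the KO libraries (3.34 and 5.67) and Npy in all 3 differed more. It stood at 10.7, 12.4, 5.21 and 4.81 CPM in the cornea libraries and 16.7 in KO CRIC, against at most 1.13 in other keratocytes, on 37, 55, 18, 1 and 4 UMIs. Npy, which encodes neuropeptide Y, differed by 0.95, 1.78, 3.06, 2.65 and 4.14 on 15, 30, 38, 4 and 4 UMIs. Its levels in the Tnnc1/Cldn10 cells of the cornea libraries, 4.34, 6.74, 11 and 19.2 CPM, lay below those of free RNA (20.2, 29.3, 21.9 and 23.2) and of epithelial cells (37.7, 53.4, 39.3 and 45.1), so they are not read as expression. Necab1, a neuronal calcium-binding protein, stood at 51.2, 40.2, 36.5, 57.7 and 45.8 CPM and was at least doubled in each library. Shisa9, a regulator of glutamate receptors, stood at 30.1, 35.3, 28.1, 48.1 and 45.8 CPM against at most 15.7. Thbd (thrombomodulin, an endothelial anticoagulant receptor) differed by 0.99, 1.37, 1.27, 1.27 and 1.92. Scx, a transcription factor of tendon progenitors, was higher by 0.63, 0.49, 1.23, 0.94 and 0.59, while Mkx, another tendon factor, was not (-0.19, -0.22, 0.15, -0.80 and -0.93). Of the tendon list, 6 genes had enough UMIs, and Scx and Fmod were higher in all 5 libraries, beside 5.26% of all genes.

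Of the genes that stood lower, Crabp2 encodes a binding protein of retinoic acid, and it stood at 10.1, 11.2, 17.1, 9.62 and 4.16 CPM against 68.2, 58.2, 110, 122 and 57.8. The rule excludes its relative Crabp1 from both cell sets. Efemp1, a fibulin of elastic tissue, differed by -1.79, -1.97, -1.97, -1.47 and -3.06. Sema5a, a guidance cue, differed by -1.37, -1.37, -1.80, -2.93 and -1.92 and Ptn, the heparin-binding growth factor pleiotrophin, by -1.24, -1.09, -1.70, -1.66 and -1.40. Cntn1, a neuronal adhesion protein, and Kcnj2, an inward rectifier potassium channel, differed by -1.53 or less in each library. Cd34, a surface marker of many fibroblasts, stood at 44.8, 58.4, 65.4, 72.1 and 79.1 CPM against 94.2, 102, 108, 155 and 120.

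Most of the 15 genes highest at 2 months stayed higher in the libraries that did not choose them. At 6 months the difference stayed above 0 for 14 of 15 genes in WT cornea, for 10 of 15 in KO cornea and for 11 of 15 in KO CRIC, with medians of 1.75, 1.31 and 1.77 against 0.01, -0.14 and -0.06 over all genes passing. Of the 15, Col8a1, Wisp2, Rcan2, Fry, Klc3, Adamtsl2 and Prkg1 had no difference or a lower level in a KO library of 6 months. Prkg1 was also lower in WT cornea at 6 months (-0.88). Of the 10 lowest, 8, 5 and 2 stayed below 0. Cxcl2, S100a9, Tspan1, Nppb, Elf3 and Akr1b7 were among those 10, and without the epithelial-rich cells of both sets their 2-month differences lay between -0.83 and 0.51. Those of Crabp2 and Ccdc3 were nearly as before, at -2.67 and -2.28 for Crabp2 and -2.40 and -2.02 for Ccdc3. Where both cell sets were limited to at most 2% mitochondrial UMIs, Col4a4 still differed by 1.07, 1.23, 1.82, 2.43 and 2.52 and Crabp2 by -2.34, -2.22, -2.50, -2.63 and -3.07.

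**Figure D3:**
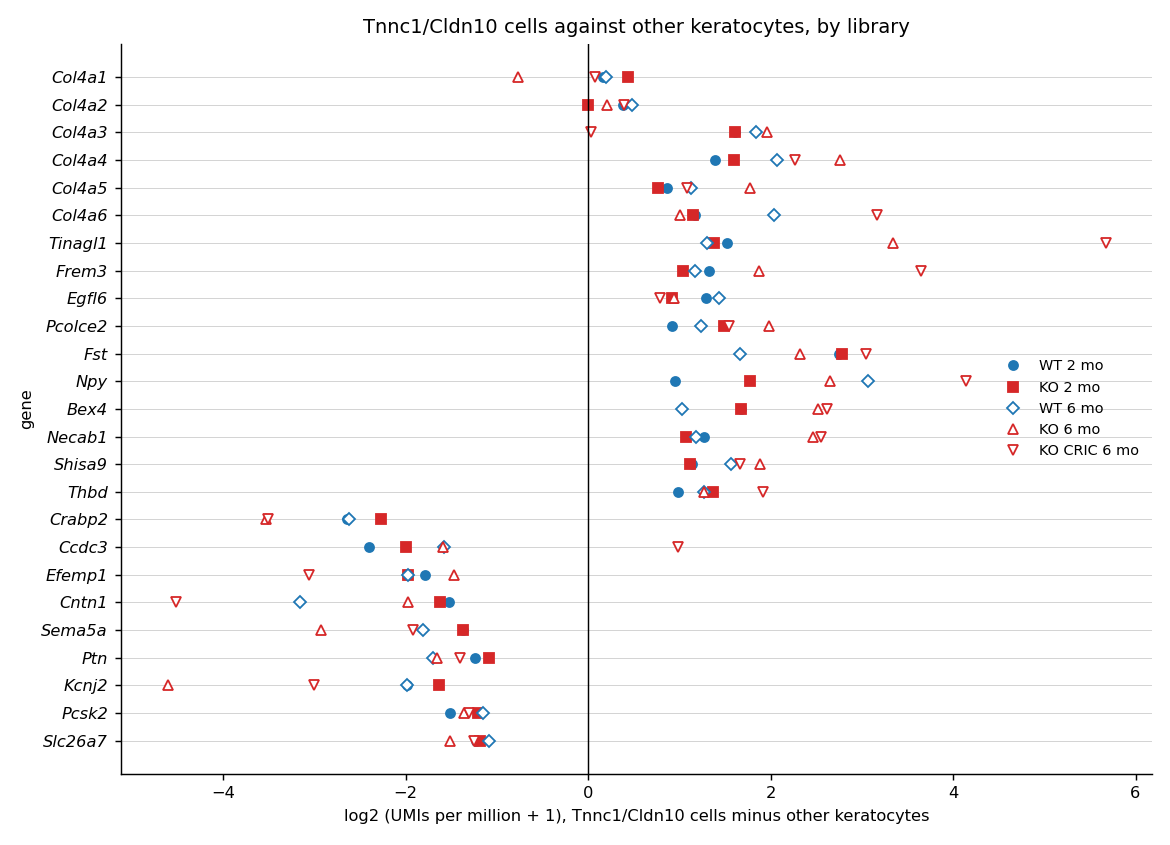
Log2 difference of CPM + 1 (x axis) between Tnnc1/Cldn10 cells and depth-weighted other keratocytes for 25 genes (y axis), with 1 symbol per library and filled symbols for the 2-month libraries. Col4a4 lies between 1.39 and 2.77 in all 5 libraries and Crabp2 between -3.53 and -2.28.

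The share of the subset among gated keratocytes differed between libraries, and its order depended on depth and on the excluded genes. It was 7.33% in WT (95% exact Clopper-Pearson interval 6.84 to 7.85) and 10.1% in KO (9.45 to 10.8) at 2 months. At 6 months it was 4.26% in WT (3.90 to 4.65) and 0.992% in KO (0.793 to 1.22). In CRIC it was 1.62% in WT (0.890 to 2.71) and 4.72% in KO (3.52 to 6.18). KO minus WT was thus 2.76 percentage points at 2 months, -3.27 in cornea at 6 months and 3.10 in CRIC. With 1 library a group there is no test, and the intervals cover counting error only.

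After thinning every cell to 1000 UMIs the shares were 1.88% (1.61 to 2.19) and 2.21% (1.89 to 2.56) at 2 months, from 169 of 8966 and 170 of 7702 cells. They were 0.963% (0.788 to 1.17) and 0.493% (0.337 to 0.695) at 6 months, on 104 of 10796 and 32 of 6497 cells, and 0.937% (0.378 to 1.92) and 1.19% (0.614 to 2.06) in CRIC. At 1000 UMIs the intervals of WT and KO overlapped at 2 months and in CRIC. They did not overlap in cornea at 6 months, where KO minus WT was -0.471 percentage points. With cells thinned to 2000 UMIs, the 6-month cornea intervals nearly met, at 1.974% to 2.56% in WT and 1.11% to 1.973% in KO. With the excluded genes also allowed at 2000 UMIs they overlapped, at 3.27% to 4.01% in WT and 2.44% to 3.63% in KO. Both 6-month cornea shares lay below both 2-month shares. The excluded genes took out unequal parts of the cells with 2 or more markers, at 28.0%, 32.3%, 65.8% and 56.0% in the cornea libraries. Crabp1 alone was found in 44.0% of such cells of the WT library at 6 months, Klra4 or Klra8 in 36.8%, and Saa3 in 24.4% of those of the KO library at 6 months. Thinned and with all excluded genes allowed, the shares were 2.01%, 2.44%, 1.25% and 0.677%, and at full depth with all allowed they were 10.2%, 14.9%, 12.5% and 2.25%. At full depth with all allowed the WT share at 6 months was thus above that at 2 months, whereas thinned it was below.

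**Figure D4:**
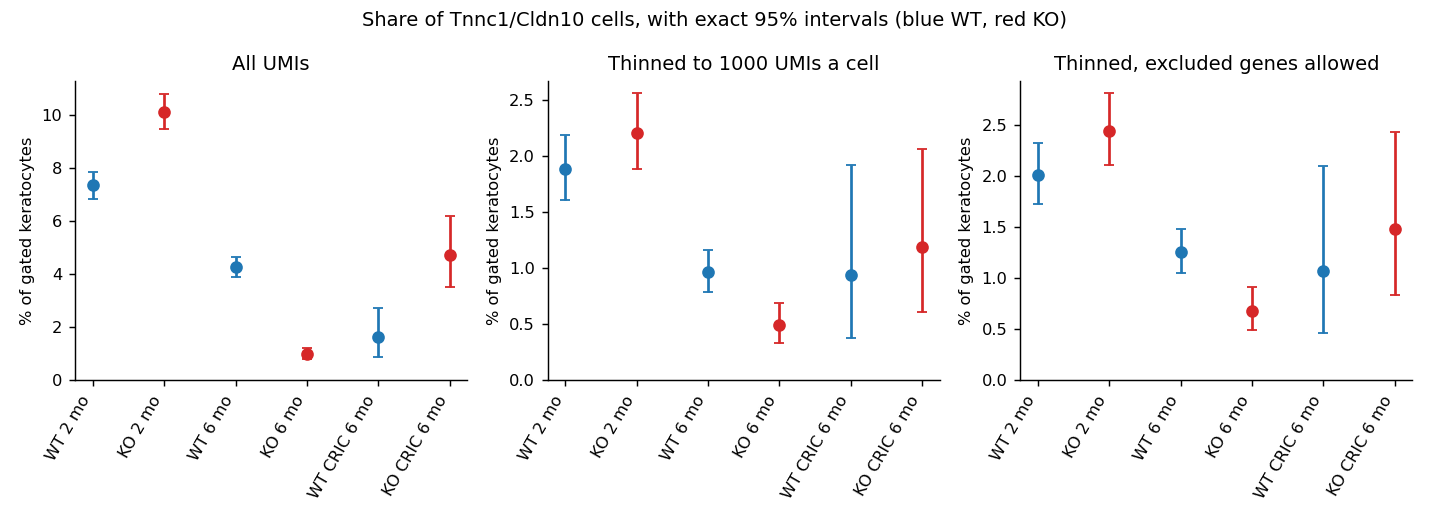
Share of Tnnc1/Cldn10 cells in gated keratocytes (percent, y axis) by library, with exact 95% intervals, at all UMIs, after thinning to 1000 UMIs a cell and after thinning with the excluded genes allowed. The KO library at 6 months has the lowest share of the cornea libraries in each panel, from 0.493% to 0.992%.

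The genotype comparison asked which genes differ in these cells when the miR-183 cluster is lost. UMIs were summed over the cells of each cornea library and fitted with age and genotype in edgeR's quasi-likelihood test, leaving 1 residual degree of freedom. Of 10868 genes tested, 2 were higher (0.0184%) and 21 lower (0.193%) in KO at a Benjamini-Hochberg adjusted p of 0.05, and 263 (2.42%) had an unadjusted p under 0.05. In 19 of the 23 genes the 21 epithelial-rich cells held most of the UMIs. Psca, for example, stood at 1378, 999, 3666 and 221 CPM and fell by 2.16 (log2, SE 0.46, edgeR adjusted p = 0.0198), and without those cells its difference was -0.01. Without them 2 genes were higher (0.0187%) and 4 lower (0.0374%) of 10693, and 4 of the 6 were shared with the first fit. With Y-linked cells left out, 7 genes passed (0.0645% of 10860).

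Chil1, which encodes a chitinase-like protein secreted in inflammation, was the gene that rose with the loss of the cluster in both fits and in both age pairs. It stood at 9.83 and 25.8 CPM in WT and KO at 2 months and at 36.8 and 1202 at 6 months, on 34, 115, 127 and 250 UMIs. The KO library at 6 months thus stood far above the other 3 cornea libraries. Its 250 UMIs lay in 25 of its 85 cells, with 50 of them in 1 cell. The log2 change was 3.42 (SE 0.44, edgeR adjusted p = 1.37e-05), and 3.53 without the epithelial-rich cells (SE 0.30, adjusted p = 4.67e-27). Leaving out that 1 library took the change to 0.19. Other keratocytes held Chil1 at 6.30, 13.8, 28.3 and 382 CPM, and free RNA held it at 2.50, 5.84, 14.7 and 1015 CPM. The rise in the KO library at 6 months was therefore also present in RNA outside cells, and how much of it was made by the Tnnc1/Cldn10 cells was not tested. KO CRIC held 204 CPM and WT CRIC 0 on 39189 UMIs, where 1 UMI is 25.5 CPM.

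With the exception of Wfdc12, the other genes that passed without the epithelial-rich cells rested on few cells. Olfr1369-ps1, an olfactory receptor pseudogene, had 11 UMIs in 4 cells and 212 UMIs in 4 cells of the WT libraries at 2 and 6 months and 0 in both KO libraries. Spag5, a gene of the mitotic spindle, had 29 and 56 UMIs in WT, in 5 and 4 cells, and 1 and 0 in KO. Wfdc12, an antibacterial protein of epithelia, had 88, 12, 14 and 0 UMIs, in 22, 10, 6 and 0 cells. Car3 and Olfr655 changed in opposite directions at the 2 ages. In each of these genes except Wfdc12 (25.4%), 1 cell held over 30% of the UMIs of the 4 libraries.

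No gene of the keratocyte lists was called for genotype. Of 18 tested collagens (22 fixed), 6 small leucine-rich proteoglycans and 8 corneal crystallins and keratocyte enzymes, 0 passed in edgeR and 0 had an unadjusted p under 0.05, with medians of -0.01, -0.02 and -0.18 against -0.03 over all genes. In these 3 lists 9, 2 and 0 genes lay above 0, beside 5052 of all 10868 genes. Without the epithelial-rich cells 0 genes of the 3 lists passed in edgeR, and 1 collagen, Col8a1, had an unadjusted p under 0.05. Of 10 acute-phase genes 1 passed, which was Chil1. Of 10 interferon-response genes 0 passed in edgeR and 3 had an unadjusted p under 0.05 (Isg15, Irf7 and Ifi27l2a). Of the 10, 1 lay above 0, and the median was -0.48. The epithelial-rich cells held 85.5% of the Isg15 UMIs, and without them Irf7 and Ifi27l2a had such a p, with a median of -0.53. Over all genes DESeq2 called 4, all lower (Aqp5, BC100530, Ifit1bl1 and Ifitm1), none of them in these lists, and Chil1 was not among them.

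The 3 seed sites searched in 3' untranslated regions were GTGCCAT for miR-183-5p, GTGCCAA for miR-96-5p and TTGCCAA for miR-182-5p, each on the transcript strand. Of 10536 tested genes with such a region, 2942 (27.9%) held at least 1 match. Their median genotype difference was 0.00 (log2), and 50.3% lay above 0. The 7594 genes with no match had a median of -0.04, with 44.8% above 0. Genes with a match had longer regions, with a median of 2390.5 bases against 907, so length and matches move together and the part of either was not tested. None of the genes with a match was called higher and 4 were called lower, against 2 higher and 17 lower of those with no match. Without the epithelial-rich cells 0 genes with a match were called in edgeR, against 2 higher and 4 lower with no match. Among the markers, Cldn10 and Dpp4 held 1 match to miR-183-5p each and Npnt 1 to miR-96-5p, while Tnnc1 and Cnmd held 0. Of 17 tested genes from the list of reported targets (20 fixed), 0 were called in edgeR or DESeq2, 0 had an unadjusted p under 0.05 in edgeR, and their median was -0.01. Without the epithelial-rich cells 0 of the 17 were called in edgeR and 1, Cyld, had an unadjusted p under 0.05.

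The age comparison asked which genes differ in these cells between 2 and 6 months. Of the same 10868 genes 20 were higher (0.184%) and 11 lower (0.101%) at 6 months than at 2 months, and 477 (4.39%) had an unadjusted p under 0.05. Without the epithelial-rich cells 21 were higher (0.196%) and 18 lower (0.168%) of 10693, and 24 genes passed in both fits. Among genes called in both were matrix genes, which were lower. Fmod, which encodes fibromodulin, a proteoglycan that regulates collagen fibrils, stood at 221, 260, 86.6 and 86.6 CPM and fell by 1.55 (SE 0.27, edgeR adjusted p = 0.00244). Col11a1, a fibril-nucleating collagen chain, stood at 164, 130, 49.2 and 81.8 CPM and fell by 1.47 (adjusted p = 0.00648). In both genes the 2-month and 6-month libraries did not overlap, which again is no support beyond the calls that picked them. Free RNA held Fmod at 94.9, 84.2, 35.3 and 22.2 CPM, lower at 6 months as well. Col23a1, a transmembrane collagen, rose in the other direction, from 48.6 and 40.0 CPM to 88.3 and 164.

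Other genes were lower at 6 months too. Aldh1a1, a retinaldehyde dehydrogenase that is a corneal crystallin, stood at 300.0, 300.2, 162 and 77 CPM (log2 -1.38, edgeR adjusted p = 0.0179). Igfbp2, which binds insulin-like growth factors, was among the most abundant transcripts, at 23883, 25236, 13107 and 9306 CPM, and fell by 1.28 (adjusted p = 0.0316). Ccnd2, a cyclin of the G1 phase, dropped from 36.7 and 45.6 CPM to 5.21 and 9.62. Dapl1, linked to the arrest of cell growth in epithelia, dropped from 53.5 and 36.2 to 11.6 and 4.81, the last on 1 UMI. Taf10, a subunit of the general transcription machinery, dropped from 110 and 98.8 to 40.0 and 28.9. Free RNA held Dapl1 at 1098, 1774, 797 and 490 CPM, far above the cells in each library and also lower at 6 months, and Taf10 at 89.1, 122, 38.9 and 50.5. The part of free RNA in these differences was not tested. In all 5 genes both 6-month libraries lay below both 2-month libraries, which adds no support, since the call picked the genes.

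Among the genes that rose, Gpc3, a cell-surface proteoglycan that modulates growth factor signals, stood at 44.5, 64.0, 105 and 231 CPM (log2 1.39, edgeR adjusted p = 0.00244). Jun, an immediate early transcription factor, stood at 235, 237, 482 and 697 CPM. It was 1 of 15 tested immediate early genes to pass. Of the 15, 14 lay above 0, beside 5071 of all 10868 genes, and the median was 0.26. Nr1d1, a repressor of the circadian clock, stood at 134, 93.0, 230 and 337 CPM, and the labels give no hour of collection. Mt2, a metallothionein, stood at 37.9, 45.6, 89.5 and 130 CPM, with free RNA at 155, 321, 429 and 222. Cxcl1, a neutrophil-attracting chemokine, stood at 5.20, 6.51, 37.4 and 33.7 CPM, while free RNA held it at 47.2, 35.3, 114 and 176, above the cells in each library. Chil1 rose with age as well (log2 3.87, adjusted p = 1.55e-06).

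Gpha2, which encodes a subunit of the hormone thyrostimulin, stood at 161, 66.5, 220 and 789 CPM and rose by 1.82 (edgeR adjusted p = 0.0179). Free RNA held Gpha2 at 129, 68.1, 137 and 389 CPM and other keratocytes at 171, 76.2, 122 and 233. The WT libraries of the 2 ages differed by less than the WT and KO libraries at 2 months, and without the KO library at 6 months the rise was 0.92. The age change of Chil1 was 0.95 without that library, whereas that of Fmod was -1.53 and that of Ccnd2 -3.03. Genes called only without the epithelial-rich cells included Igfbp5, which binds insulin-like growth factors (161, 168, 296 and 491 CPM, log2 1.06), Serpina3n, an acute-phase protease inhibitor (18.6, 9.56, 21.6 and 196 CPM, log2 1.95), and Ybx1, an RNA-binding protein (750, 832, 345 and 505 CPM, log2 -1.07).

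By list, 1 of 6 tested small leucine-rich proteoglycans passed, Fmod, and 0 of the 6 lay above 0, with a median of -0.30. Of 18 collagens 1 was called higher and 1 lower, 3 lay above 0 and the median was -0.31. Over all 10868 genes tested 5071 lay above 0, and the median was -0.03. Calls depended on the fit. DESeq2 called 0 genes (96 at an unadjusted p under 0.05), and with Y-linked cells left out edgeR called 8 (0.0737% of 10860), of which Chil1, Cxcl1, Gpc3, Ccnd2, Dapl1, Taf10 and Fmod were 7.

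**Figure D5:**
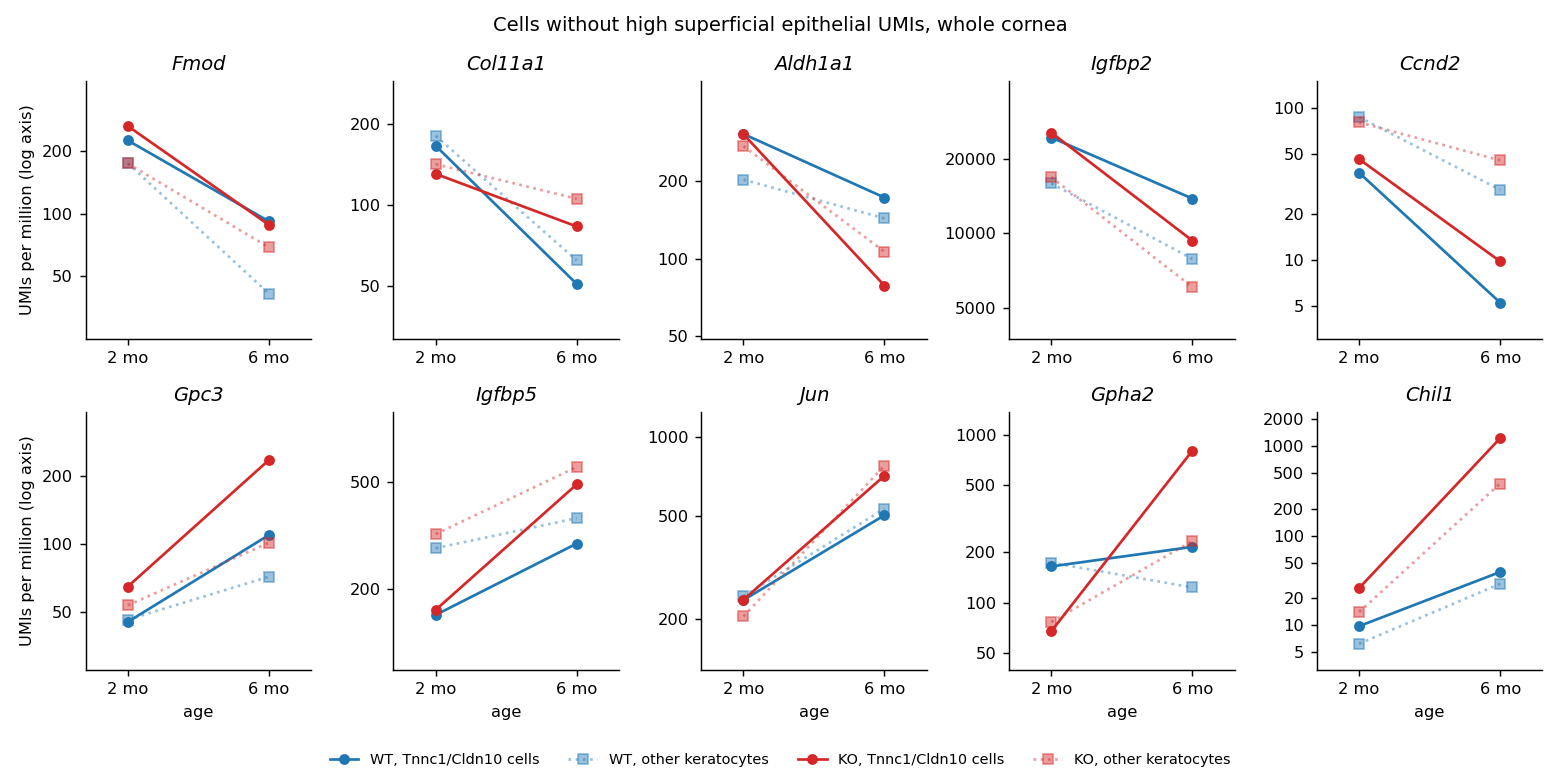
Levels in CPM (log axis) of 10 genes at 2 and 6 months in whole cornea, for Tnnc1/Cldn10 cells without the epithelial-rich ones (circles) and other keratocytes without them (squares), blue for WT and red for KO. The other keratocytes are not weighted for depth. Fmod lies at 225 and 263 at 2 months and at 91.8 and 88.3 at 6 months in the Tnnc1/Cldn10 cells.

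Whether the changes differed from those of other keratocytes was tested as an interaction in 1 fit over both cell sets with the library as a block. The other keratocytes, which were shallower, were not weighted for depth in this fit or in the levels given here. In other keratocytes Fmod stood at 172, 172, 40.6 and 68.8 CPM and Col11a1 at 178, 141, 61.1 and 106, and neither gene passed this test. For genotype 6 genes were higher (0.0498%) and 7 lower (0.0581%) of 12038, and without the epithelial-rich cells of both sets 1 was higher and 3 lower (0.0335% of 11924 in all). For age 56 were higher (0.465%) and 5 lower (0.0415%), and without the epithelial-rich cells 5 and 6 (0.0923% in all). Without the epithelial-rich cells the age change of Gpha2 was 0.39 in WT and 3.56 in KO in the Tnnc1/Cldn10 cells and -0.49 and 1.59 in other keratocytes, and the fitted difference was 1.35 (SE 0.15, edgeR adjusted p = 4.73e-14). That of Dapl1 was -2.05 and -2.65 against 0.36 and -2.27, a fitted difference of -2.40 (edgeR adjusted p = 1.47e-06). In the KO library at 6 months Dapl1 rested on 1 UMI in the Tnnc1/Cldn10 cells, and in each library free RNA held far more of it than the cells. For both genes the change in other keratocytes had opposite signs in WT and KO. Bmper, which binds bone morphogenetic proteins, changed by -0.36 and -1.41 against 0.36 and 0.53, a fitted difference of -0.89 (adjusted p = 0.0304), on 5 UMIs in the KO library at 6 months. These 3 genes were picked out after their values were seen, and for each the difference between the cell sets had the same sign in both genotypes.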

How the data were processed

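The deposited files are raw UMI counts per gene and barcode for 6 libraries, with no normalization. Per the submitters' processing notes the authors used build mm10 and Cell Ranger 2.1.1, and per the file headers Cell Ranger 6.0.1. No source used here gives the aligner settings. All barcodes were read and filtered as stated in the report. The marker rule, the gene lists, the comparisons and the members were chosen with earlier results of these data known. No doublet caller was run.

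Counts were summed per library and cell set and scaled to CPM. Log2 differences used a pseudocount of 1 CPM. For the descriptions other keratocytes were weighted to the depth of the chosen cells in 2 bins per doubling of UMIs. For the tests, and for the levels given with them, they were summed without weights. Shares carry exact Clopper-Pearson intervals and levels exact Poisson intervals, both at 95% and for counting error only. Sums over the 4 cornea libraries were tested in edgeR 4.0.16 (R 4.3.3; quasi-likelihood, TMM, filterByExpr, Benjamini-Hochberg adjusted p of 0.05) with age and genotype, and differences between cell sets as interactions with the library as a block. Both fits left 1 residual degree of freedom. The standard error (SE) is the absolute log2 change over the root of the F value. The spread behind it is shared across genes, so p-values do not measure how well the libraries agree for 1 gene. Without the epithelial-rich cells Chil1, for example, had an SE of 0.30, while KO minus WT was 1.32 and 4.93 at the 2 ages. No source says that libraries came from separate animals, so p-values do not measure the spread between animals either. DESeq2 1.42.0 was an alternative. On simulated counts for the genotype comparison (10613 genes) edgeR recovered 11% of 2-fold and 86% of 4-fold changes with 2 false calls. The simulated counts had the same spread setting in every gene, and only genes with many UMIs were changed. They held no genes carried by few cells, so the false calls of the real counts cannot be read from them.

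Named genes were the 15 highest and 10 lowest of the 2-month libraries, the 10 largest per direction with the same sign in both pairs past each test, the 3 most abundant of each list with any that passed, and the genes of the cell rule. Thinning drew each cell to 1000 or 2000 UMIs without replacement and left out shallower cells. Seed matches were searched in 3' untranslated regions of the GRCm38.p6 annotation. The labels carry no replicate numbers.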

Additional observations from a re-analysis of the deposited data

Results flagged for a closer look

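The share of Tnnc1/Cldn10 cells was higher in KO than in WT by 2.76 percentage points at 2 months, while KO minus WT was -3.27 at 6 months. The 2 ages moved in opposite directions, and that difference was not tested, with 1 library a group. In the library labelled KO and female at 2 months, 218 UMIs of Y-linked genes were found in the subset, and the other libraries had 0.

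The genotype effect differed between Tnnc1/Cldn10 cells and other keratocytes in the interaction test for Crct1 (log2 6.06), Nol4l (1.91), Elf3 (-1.87), Ifit1bl1 (-1.55), Aqp5 (-1.50) and Psca (-0.60). Of these, Nol4l passed also without the epithelial-rich cells (1.88). In the KO library at 2 months 1 cell held 55 of its 91 UMIs, KO minus WT in the Tnnc1/Cldn10 cells was 2.17 at 2 months and -0.32 at 6 months, and the difference was 0.87 without that library (edgeR adjusted p = 0.85). The age effect differed for Olfr1369-ps1 (6.83), Slc16a11 (4.34), Spp1 (3.74), Clca3b (2.83), Mall (2.59), Oasl1 (2.40), Asb11 (2.33), Pdzk1ip1 (2.01), Elf3 (1.97) and Cd274 (1.97), and in the other direction for Ppm1n (-4.57), Dapl1 (-2.41) and Bmper (-0.96). Olfr1369-ps1, Dapl1 and Bmper passed also without the epithelial-rich cells, and Olfr1369-ps1 was seen in 4 cells of each WT cornea library and in none of the KO ones.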

How the results depend on the processing

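The genotype test, with 23 calls, gave 4 with DESeq2, 40 with no filter, 4 for cells with at least 3 markers, 74 with all excluded genes allowed, 7 without Y-linked cells, 6 without epithelial-rich cells and 0 with genotype alone (254 at an unadjusted p under 0.05). Leaving out 1 library gave 15 to 100 (without WT at 2 months 100, without KO at 2 months 50, without WT at 6 months 15). The age test, with 31 calls, gave 0 with DESeq2, 10 for at least 3 markers, 56 with Saa3 allowed, 120 with all excluded genes allowed, 8 without Y-linked cells and 2 with age alone. Leaving out 1 library gave 0 to 218 (18 without WT and 0 without KO at 2 months, 93 without WT and 218 without KO at 6 months). The difference of the genotype effect, with 13, gave 0 with DESeq2 (28 unadjusted) and 4 without epithelial-rich cells, and 0 to 48 with 1 library left out (48 without WT and 0 without KO at 2 months, 6 without KO at 6 months). That of the age effect, with 61, gave 109 against all gated keratocytes, 1 with DESeq2, 11 without epithelial-rich cells and 92 with the tested interaction alone, and 35 to 208 with 1 library left out (35 without WT and 208 without KO at 6 months). The cause was not tested.

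The count of genes that differed by a factor of 2 or more in 1 direction in all libraries, 21, became 66 in the 3 libraries with at least 400 cells, 11 at 2% mitochondrial UMIs or less, 38 in the 3 libraries without epithelial-rich cells, 57 unweighted, 34 against cells with 0 markers, 55 against all gated keratocytes, 5 with a pseudocount of 10 CPM and 34 for at least 3 markers, and 25 to 37 with 1 library left out (33 without WT and 34 without KO at 2 months, 37 without KO CRIC), fewer libraries being an easier demand. With the marker left out of the choice the ratios fell to 3.13 (Tnnc1), 2.21 (Dpp4), 2.22 (Cnmd) and 3.20 (Npnt).

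Shares in the order WT and KO at 2 months, WT and KO at 6 months were 1.88%, 2.21%, 0.963% and 0.493% thinned to 1000 UMIs (KO CRIC 1.19%), and 2.01%, 2.44%, 1.25% and 0.677% with the excluded genes also allowed (KO CRIC 1.48%). Thinned to 2000 they were 5.42%, 5.81%, 2.25% and 1.5% (KO CRIC 2.81%), and 6.19%, 6.74%, 3.63% and 2.99% with the excluded genes allowed. With those allowed at full depth they were 10.2%, 14.9%, 12.5% and 2.25% (KO CRIC 10.3%). For at least 3 markers they were 2.67%, 4.30%, 1.58% and 0.187%, with 0.116% in WT and 1.79% in KO CRIC. Cells of at least 1000 UMIs gave 8.40% in WT at 2 months and 1.31% in KO at 6 months, where Saa3 allowed gave 1.39%.

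Reversed were the genotype changes of Elf3 (0.10) and Slc5a1 (0.18) for at least 3 markers, and the age changes of Slc6a14 (-0.40 without WT at 6 months, up to 2.41 with another library left out) and Wfdc12 (0.32 without WT at 2 months, down to -8.19). Differences of the genotype effect reversed without epithelial-rich cells for Crct1 (-0.0099), Ifit1bl1 (0.17) and Psca (0.12), and Ifit1bl1 ranged from -2.99 to 0.28 with 1 library left out. Differences of the age effect reversed without epithelial-rich cells for Pdzk1ip1 (-0.22) and Elf3 (-0.10), and without WT at 6 months for Olfr1369-ps1 (-2.72), Slc16a11 (-2.56) and Asb11 (-4.83), whose ranges reach 13.3, 4.51 and 3.60. Against other keratocytes S100a9 (0.15), Tspan1 (0.24) and Nppb (0.15) reversed without epithelial-rich cells. Over all alternatives, 602 single-gene changes comprised 345 on the same side of the threshold, 244 no longer past it and 13 reversed.

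Depth limits the KO library at 6 months most, with 85 cells and 207922 UMIs, and both CRIC libraries. Fits with 1 library left out hold only the tested factor, and a group then left with 1 library is taken to vary as its counterpart does. With all 6 libraries and each WT and KO pair of 1 age and tissue as a block, the genotype test gave 23 calls, 18 of them shared with the fit of 4 libraries. The labels carry no replicate numbers.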
